A study of Caenorhabditis elegans with 2 samples.

Results

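The microRNA genes of Caenorhabditis elegans were examined for regions bound by the zinc-finger factor PAG-3 in late embryos. The members were all 260 genes that the RefSeq annotation of the WBcel235 assembly (ce11) gives the biotype miRNA, out of 46890 annotated genes of the 6 nuclear chromosomes. The rule uses the annotation and no measured value, although the class was picked for description with earlier results of these data known. Each gene was given a window from 1000 bp upstream of its 5′ end to its 3′ end, on its own strand, and a region was assigned to the gene where the summit of the region lay in that window.

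The method was ChIP-seq, in which fragments of chromatin are precipitated with the tagged factor and sequenced, here with an antibody against GFP. The worms were hermaphrodites of strain OP154, genotype unc-119(ed3) III; wgIs154, and carried an integrated transgene encoding PAG-3 with a GFP-FLAG tag at its C-terminus. Whole embryos were collected 4 hours after synchronization by egg bleaching, in 1 group of 2 biological replicates. There was thus no second condition to compare, and no test between samples was possible. All animals carried the transgene and the unc-119 allele, and the promoter that drives the transgene was not given in the sources used here. Whole animals were used, so strong binding in few cells and weak binding in many cells cannot be told apart.

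MicroRNAs are short RNAs cut from hairpin precursors, and they lower the output of messenger RNAs that pair with their seed, the stretch near the 5′ end. Genes with the same seed form families whose members can act redundantly, and many lie in clusters transcribed as one precursor. In the worm, lin-4 and let-7 set the timing of larval development, and the mir-35 and mir-51 families are needed in the embryo. PAG-3 belongs to the GFI family, zinc-finger proteins known mainly as repressors, and is known for its part in neuron fate.

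Among all 260 microRNA genes, the mir-51 family stood at the top of the list of regions. All 6 of its genes had a region in the window, and 5 of them had one on the authors' list of peaks kept by the irreproducible discovery rate (IDR), a measure of how well the ranks of the replicates hold up. Only 1 other microRNA gene, mir-62, had such a peak. Over all microRNA genes, 41.2% had a region in the window and 2.31% such a peak. Among genes with a number below 100 in the name, as in this family, the shares were 76.8% and 10.7%. The mature RNAs of the family are printed to show what its members share, with the seed (bases 2 to 8) in capitals. They were read by coordinates from the RefSeq genome sequence of WBcel235.
miR-51 (5′ arm): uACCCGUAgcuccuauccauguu
miR-52 (5′ arm): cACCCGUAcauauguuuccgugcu
miR-53 (5′ arm): cACCCGUAcauuuguuuccgugcu
miR-54 (3′ arm): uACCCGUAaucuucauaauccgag
miR-55 (3′ arm): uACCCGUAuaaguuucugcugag
miR-56 (3′ arm): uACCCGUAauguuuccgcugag

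The seed ACCCGUA is the same in all 6, although it comes from the 5′ arm of the hairpin in mir-51, mir-52 and mir-53 and from the 3′ arm in mir-54, mir-55 and mir-56. It is the seed that relates the family to miR-100 of other animals. The genes lie at 3 places. mir-51 (IV:11026013-11026112) and mir-53 (IV:11027593-11027691) are neighbours on the minus strand, and mir-52 (IV:14034008-14034107) lies apart on the plus strand. mir-54 (X:13144996-13145094), mir-55 (X:13144827-13144924) and mir-56 (X:13144691-13144787) form a cluster on the minus strand, inside an intron of the protein-coding gene F09A5.3, which runs the other way.

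For the 4 distinct IDR peaks at microRNA genes, a stretch of 121 bases centred on the summit is printed, on the strand of the microRNA gene (WBcel235, RefSeq). The stretches span IV:11026097-11026217, IV:14033819-14033939, X:13145318-13145438 and X:12692027-12692147, in the order given. Capitals mark the word GGTTCGA.
mir-51: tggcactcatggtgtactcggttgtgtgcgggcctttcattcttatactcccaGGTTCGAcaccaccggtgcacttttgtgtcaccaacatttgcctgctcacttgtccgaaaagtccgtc
mir-52: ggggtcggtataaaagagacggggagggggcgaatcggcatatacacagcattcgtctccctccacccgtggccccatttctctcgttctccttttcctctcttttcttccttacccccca
mir-54, mir-55 and mir-56: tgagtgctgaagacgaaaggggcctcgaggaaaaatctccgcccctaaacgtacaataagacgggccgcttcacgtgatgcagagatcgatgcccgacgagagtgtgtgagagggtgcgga
mir-62: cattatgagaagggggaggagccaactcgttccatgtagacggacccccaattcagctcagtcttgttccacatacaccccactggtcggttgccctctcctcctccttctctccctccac

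Values behind these peaks are the signal values of the authors' lists, which rank regions within a list and have no fixed unit. At mir-51 the region IV:11025932-11026381 had a signal value of 159 in the pooled list and ranked 32 of 21336. It had 87.0 in replicate 1 and 78.3 in replicate 2, with ranks of 25 and 48. Its summit lay 45 bp upstream of the 5′ end of the gene, inside the annotated non-coding RNA gene F36H1.17. No protein-coding transcript started within 1000 bp, the nearest start being that of hrg-5 at 3271 bp.

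At mir-52 the region IV:14033654-14034103 had a pooled signal value of 118 and ranked 103. The replicates had 60.0 and 64.5, at ranks 93 and 100. The summit lay 129 bp upstream of the gene, inside the annotated non-coding RNA gene Y37A1B.330, and 2 more non-coding RNA genes overlap the region on the other strand. A second region in the same window ranked 1455 with a signal value of 57.3, and another IDR peak (rank 197, signal value 98.9) had its summit 1244 bp upstream, just outside the window. mir-52 is thus flanked on its upstream side by a pair of IDR peaks, in a stretch where the nearest protein-coding start, that of Y37A1B.7, was 9901 bp away.

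The cluster of mir-54, mir-55 and mir-56 shared the region X:13145153-13145602, with a pooled signal value of 114 and rank 125. The replicates had 52.8 and 62.1, at ranks 156 and 121. The summit lay 284 bp upstream of mir-54, 454 bp upstream of mir-55 and 591 bp upstream of mir-56. It fell within the F09A5.3 gene body but 3777 bp from the nearest protein-coding start. These 3 genes are counted as 3 but rest on 1 region.

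mir-53 was the exception in the family. Its strongest region had a pooled signal value of 45.9, rank 3251, and was not an IDR peak. The strongest regions in its window had 24.4 in replicate 1 (rank 3851) and 26.4 in replicate 2 (rank 2945). The IDR peak at mir-51 lay 1534 bp downstream of the 5′ end of mir-53. In each replicate the values of mir-51, mir-52 and the mir-54 cluster lay above those of every other microRNA gene, and the value of mir-53 lay well within the range of the others. As mean ± SD (n = 2), the replicate signal values were 82.6 ± 6.10 for mir-51, 62.2 ± 3.17 for mir-52, 57.4 ± 6.57 for the mir-54 cluster and 25.4 ± 1.40 for mir-53.

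**Figure D1:**
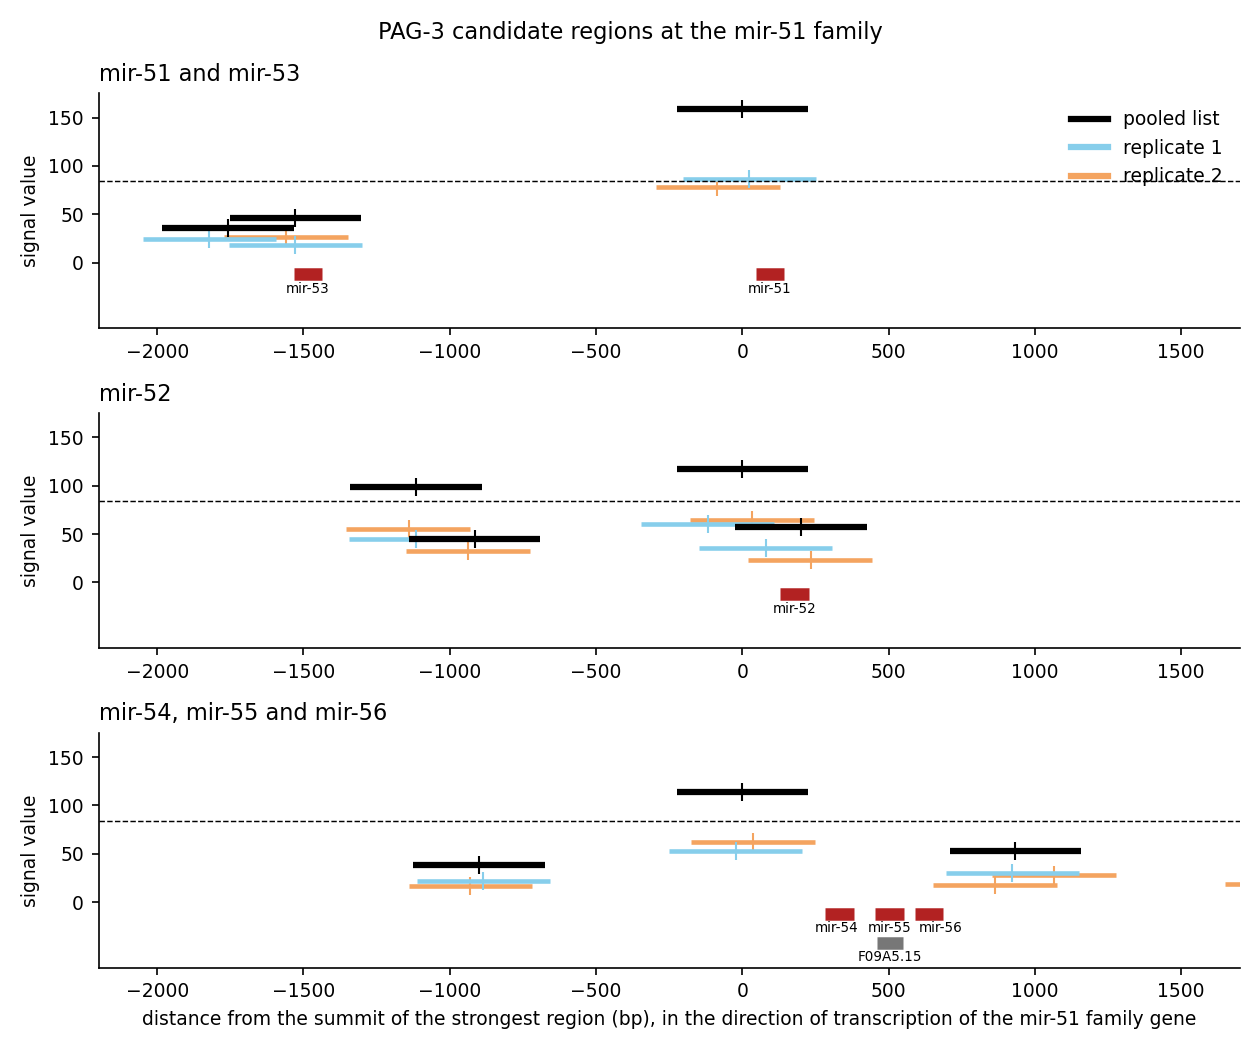
Candidate regions at the 3 loci of the mir-51 family, by distance from the summit of the strongest pooled region (x axis, bp, in the direction of transcription of the microRNA gene) and signal value (y axis). Horizontal bars are regions of the pooled list and of each replicate, ticks are summits, red boxes below 0 are the family's genes and the grey box is F09A5.15; the dashed line is the lowest pooled signal value of an IDR peak, 84.0. The pooled regions next to mir-51, mir-52 and mir-54 stand at 159, 118 and 114, and the region at mir-53 at 45.9.

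mir-62 held the lowest of the IDR peaks at microRNA genes. The region X:12691862-12692311 had a pooled signal value of 85.5, rank 304, against 84.0 for the weakest of the 327 IDR peaks. Replicate 1 gave 38.0 (rank 604) and replicate 2 gave 43.6 (rank 412), so it was among the 327 strongest of neither replicate. The summit lay 521 bp upstream of mir-62, which sits in an intron of ugt-50 on the same strand. It was also 221 bp upstream of a ugt-50 transcript start, so the peak may be assigned to either gene. mir-62 shares its seed with mir-90 on another chromosome, and both are printed below with a pair from the mir-35 family, whose members also share a seed (capitals, bases 2 to 8; WBcel235, RefSeq).
miR-62: uGAUAUGUaaucuagcuuacag
miR-90 (3′ arm): uGAUAUGUuguuugaaugccccu
miR-35 (3′ arm): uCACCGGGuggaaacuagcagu
miR-42 (3′ arm): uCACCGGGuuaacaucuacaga

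Just below the IDR limit stood 4 further genes. mir-58.1, a worm relative of the fly bantam microRNA, had 80.9 (rank 388; 34.5 in replicate 1 and 41.1 in replicate 2) in an intron of phkb-1. mir-124, whose vertebrate counterpart is a neuronal microRNA and which is expressed in worm sensory neurons, had 80.7 (rank 392) in an intron of trpa-1. The replicates differed more at mir-124, with 48.3 (rank 223) in replicate 1 and 29.6 (rank 1920) in replicate 2. mir-8192 in flcn-1 had 79.2 (37.5 and 42.0), with its summit also 448 bp upstream of a flcn-1 transcript start. mir-71, a microRNA of stress responses and ageing that lies in ppfr-1, had 77.5 (45.8 and 31.1). As at mir-51 and mir-52, the summits at mir-124 and mir-71 lay inside annotated non-coding RNA genes, C29E6.13 and F16A11.8. The 4 microRNA genes lay above 76.3, the lowest signal value of the authors' IDR list in the older build ce10. That list is a different one, so its limit need not be on the same scale. What kept these 4 genes off the ce11 list of IDR peaks was not tested.

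The next regions were those of mir-90 (67.0), mir-2 (65.0), mir-50 (62.5), the neighbours mir-61 and mir-250 (60.7, shared), mir-5549 (58.0), lin-4 (55.8), mir-59 (55.2), mir-80 (54.7) and mir-8212 (54.4). The summits at mir-61 and mir-250 and at mir-5549 also lay in promoter windows, of F55A11.4 and of eef-1A.1 and rfc-4. mir-90 had 27.0 in replicate 1 (rank 2604) and 47.9 in replicate 2 (rank 300). lin-4 had 38.0 (rank 610) and 22.1 (rank 5485), with its summit 196 bp upstream of the gene in an intron of F59G1.4. That summit also lay inside the annotated non-coding RNA gene F59G1.12. The replicates disagreed in opposite directions at mir-90 and lin-4, so neither value can be placed firmly in the order. In all, 12 of the microRNA genes had a region among the 1000 strongest pooled regions, 21 among the 2000 strongest, and 38 had their strongest region beyond rank 10000.

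**Figure D2:**
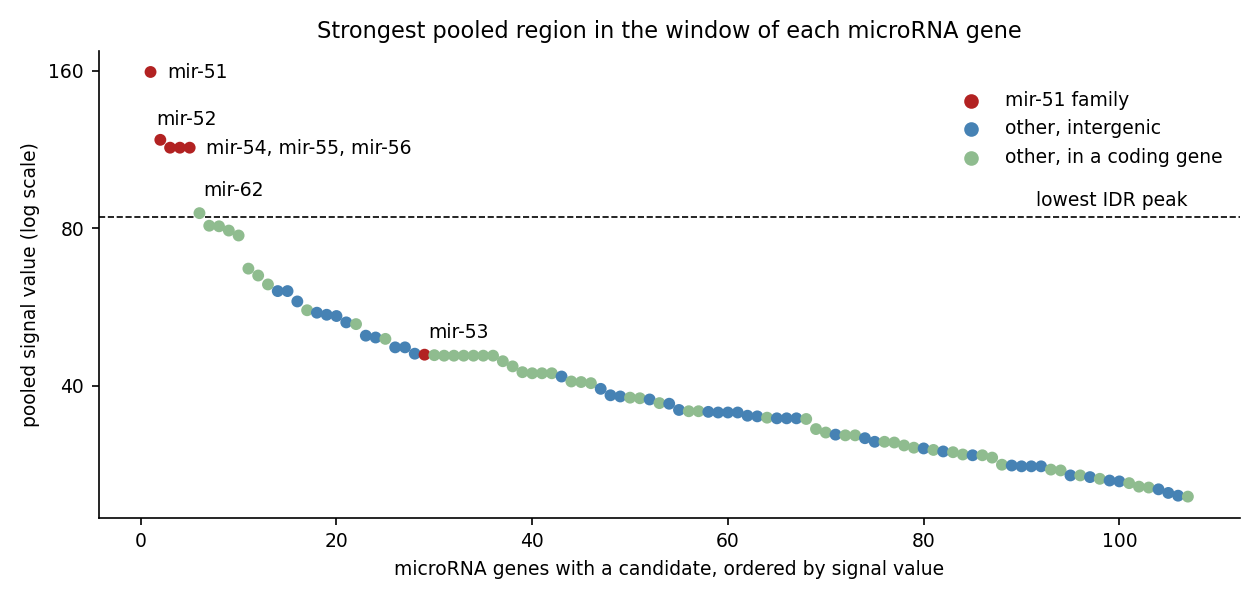
Pooled signal value (y axis, log scale) of the strongest region in the window of each of the 107 microRNA genes with a candidate, ordered by that value (x axis). Points are genes, coloured by membership of the mir-51 family and by whether they lie in a protein-coding gene; the dashed line is the lowest IDR peak, 84.0. The mir-51 family genes other than mir-53 (45.9) lie at 114 to 159, and the values run down to 24.6.

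Of the 260 microRNA genes, 107 (41.2%, 95% Wilson interval 35.3% to 47.2%) had a pooled candidate region in the window. Candidates are the authors' permissive list of peaks and background, from which IDR peaks were drawn. The same count was 5122 of 19971 protein-coding genes (25.6%), 296 of 612 tRNA genes (48.4%), 160 of 346 snoRNA genes (46.2%) and 33 of 129 snRNA genes (25.6%), where snoRNAs and snRNAs are the small RNAs of the nucleolus and of splicing. The interval for microRNA genes lay above that of protein-coding genes, whose upper bound was 26.3%. It overlapped those of tRNA genes (44.4% to 52.3%) and snoRNA genes (41.1% to 51.5%). Not every subset described below stood apart from protein-coding genes. The interval of intergenic microRNA genes (24.2% to 38.6%) included the protein-coding share of 25.6%. So did those of genes whose names have numbers from 100 to below 1000 (23.4% to 44.1%) or of 1000 or more (22.1% to 38.1%). The intervals of genes within a protein-coding gene (46.6% to 65.3%) and of genes numbered below 100 (64.2% to 85.9%) lay above it. Intervals treat genes as independent and cover counting error only, and neighbouring microRNA genes share regions, so no test was made. The authors' −log10 q value was 1.83 at mir-62, 1.24 at mir-90 and 0.214 at mir-46, the gene of median rank (6891). A candidate is therefore not by itself a call of binding.

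An IDR peak lay in the window of 6 microRNA genes (2.31%, 1.06% to 4.94%), from 4 distinct peaks. That was 1.00% of protein-coding genes, 9.80% of tRNA genes, 10.1% of snoRNA genes and 1.55% of snRNA genes. The interval for microRNA genes overlapped that of protein-coding genes (0.872% to 1.15%) and lay below those of tRNA genes (7.69% to 12.4%) and snoRNA genes (7.36% to 13.7%). Without the mir-51 family, 1 of 254 microRNA genes had an IDR peak, and 39.8% still had a candidate. None of the strongest regions at microRNA genes had a tRNA or snoRNA gene within 100 bp of its summit.

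**Figure D3:**
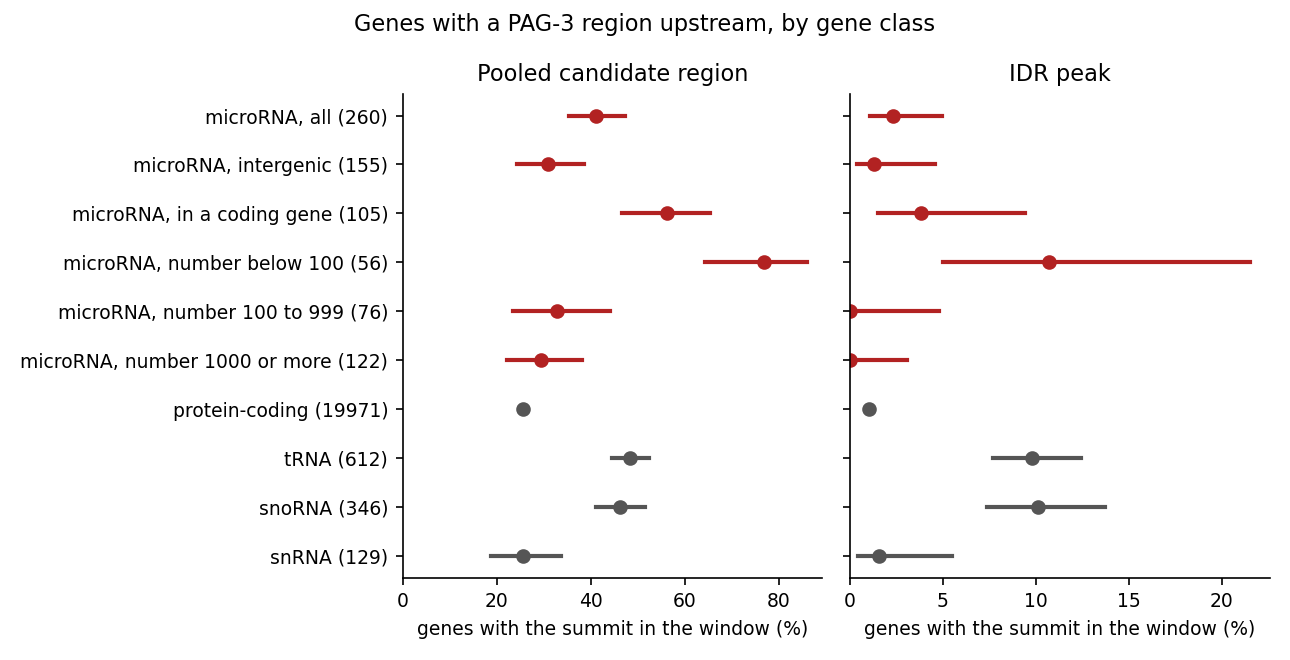
Share of genes (x axis, %) with the summit of a pooled candidate (left) or of an IDR peak (right) in the window, for microRNA genes, subsets of them, and other gene classes, with the number of genes in brackets. Points are shares and bars are 95% Wilson intervals. Candidates were found at 76.8% of microRNA genes with a number below 100, 41.2% of all microRNA genes and 25.6% of protein-coding genes.

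The 107 genes rested on 90 distinct strongest regions, because 9 regions were shared by 26 genes of clusters. The median signal value of the strongest region was 37.0 at microRNA genes, 34.1 at protein-coding genes and 32.0 over all pooled candidates. The rule admits only summits from 1000 bp upstream to the 3′ end, so closeness to the gene was largely set by it. Within that window the median was 261 bp upstream of the 5′ end. There were 42 summits within 250 bp upstream, 26 at 250 to 500 bp, 29 beyond 500 bp and 10 within the gene itself. Upstream summits within 500 bp made up 63.6% of the 107, and 53.0% at protein-coding genes, with shared regions counted once per gene. A summit in a protein-coding promoter window (1000 bp upstream to 200 bp downstream of a transcript start) was found at 28 of the 107 genes (26.2%), where the region cannot be assigned to the microRNA gene alone.

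A candidate was listed for a smaller share of the intergenic microRNA genes than of those within a protein-coding gene. The counts were 48 of 155 (31.0%, 24.2% to 38.6%) for intergenic genes and 59 of 105 (56.2%, 46.6% to 65.3%) for genes within a host, and the intervals did not overlap, although the difference was not tested. Genes of a cluster were counted singly: the 48 rested on 41 distinct strongest regions and the 59 on 49. Among the genes within a host, 40 of 73 on the strand of the host (54.8%, 43.4% to 65.7%) and 19 of 32 on the opposite strand (59.4%, 42.3% to 74.5%) had a candidate, and these intervals overlapped. The 40 rested on 37 distinct strongest regions, but the 19 on only 12, so the second interval is too narrow. Of the 65 genes in a same-strand intron, 37 had a candidate, and 12 of those summits lay in the promoter window of the host itself. By chromosome, the share ran from 12 of 50 (24.0%) on IV to 15 of 27 (55.6%) on III. The 6 genes with an IDR peak lay on IV and X, which held 50 and 73 of the microRNA genes.

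Grouped by the number in the name, the share was uneven. MicroRNA numbers were given in order of discovery, and low numbers belong mostly to RNAs that were abundant enough to be cloned early. A candidate was present at 43 of 56 genes numbered below 100 (76.8%, 64.2% to 85.9%), at 25 of 76 numbered from 100 to below 1000 (32.9%, 23.4% to 44.1%) and at 36 of 122 numbered 1000 or more (29.5%, 22.1% to 38.1%). All 6 genes with an IDR peak were in the first group. The difference was present among intergenic genes (60.0%, 27.3% and 22.4% in the same order) and among genes in a host (96.2%, 47.6% and 38.2%). It was also present when overlapping windows were merged into loci, at 30 of 43 loci (69.8%), 25 of 72 (34.7%) and 34 of 111 (30.6%). In the first group 39 of the 43 genes had a region found in both replicates, against 11 of 25 and 17 of 36. This grouping was made with the values in view, and the difference was not tested.

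Counts by seed family are set beside the shares over all microRNA genes, 41.2% with a candidate and 2.31% with an IDR peak. The mir-51 and mir-35 families and that of mir-50, mir-62 and mir-90 hold only genes numbered below 100. Of all genes so numbered, 76.8% had a candidate (96.2% of those in a host) and 10.7% an IDR peak. Full families of such genes are thus less far from their own group than from all microRNA genes. All 8 genes of the mir-35 family, which is abundant in the early embryo, had a candidate, but none had an IDR peak and they rested on 3 regions. mir-35, mir-36, mir-37, mir-38, mir-39 and mir-40 shared the region II:11537053-11537502 (pooled signal value 45.7, rank 3322), in an intron of Y62F5A.9 on the opposite strand. By overlap with that region, replicate 1 gave 17.3 (rank 12049) and replicate 2 gave 29.9 (rank 1834). mir-41 had 27.6 and mir-42 had 35.6. The region of mir-35 to mir-40 was thus of moderate rank in only 1 replicate.

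The family of mir-229, mir-63, mir-64, mir-65 and mir-66 (seed AUGACAC) had a candidate at 5 of 5 genes, with signal values from 30.8 to 42.3. All but mir-229 are numbered below 100, where the share was 76.8%. The family of mir-50, mir-62 and mir-90 (seed GAUAUGU) had one at 3 of 3, at 62.5, 85.5 and 67.0 on 3 chromosomes. The group with seed GAGAUCA had a candidate at 3 of 6 genes, at 54.7 for mir-80, 30.5 for mir-81 and 29.9 for mir-82, and mir-58.2, mir-2209.1 and Y73B6A.17 had none. mir-58.1, which is counted with the bantam relatives, has the seed GAGAUCG and is not in that group; the bantam relatives alone had a candidate at 4 of 5 genes. The mir-2217 genes with seed AGAGUGG had none at 4 of 4, beside a share of 29.5% over all genes numbered 1000 or more. Families whose genes lie in a cluster share regions, so these counts are not independent. No family was tested against the share over all microRNA genes.

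**Figure D4:**
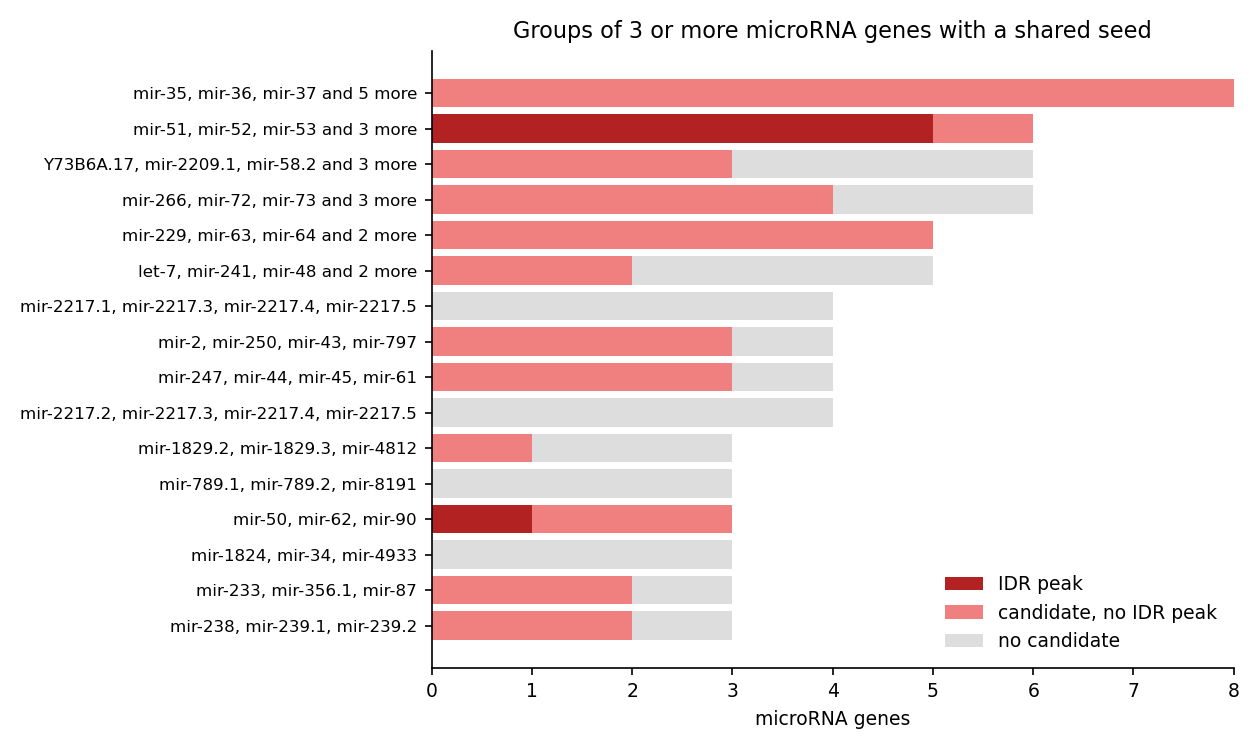
Number of microRNA genes (x axis) in each group of 3 or more genes that share the seed of a mature arm (y axis), split into genes with an IDR peak, genes with a candidate only and genes with none. A gene with 2 mature arms can be in more than 1 group. The mir-51 family holds 5 genes with an IDR peak, and the mir-35 family 8 with a candidate and none with an IDR peak.

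Genes of developmental timing had no IDR peak. Beside lin-4 (55.8, rank 1617), a candidate lay at let-7 (pooled signal value 40.8, rank 4972), mir-237 (35.0, rank 8228) and mir-241 (31.3, rank 11364), so 4 of 6 had one, with a median of 37.9 beside 37.0 over all microRNA genes with a candidate. The shares over all microRNA genes were 41.2% for a candidate and 2.31% for an IDR peak, and the few genes of this list, or of any list below, cannot be set apart from them. The annotated let-7 gene is a long primary transcript, and the summit lay within it, 400 bp upstream of the mature RNA and in the promoter window of C05G5.7. Replicate 1 gave 14.2 and replicate 2 gave 20.9 at let-7. mir-237, a lin-4 relative, had a region in replicate 1 only (15.0). The let-7 relatives mir-48 and mir-84 had no pooled candidate in the window.

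Of the 5 microRNAs on the list of neuronal genes used here, mir-124 alone had a candidate. The list was chosen for description and is not a full set of microRNAs expressed in neurons. It therefore gives no share for neuronal microRNA genes as a class. lsy-6, which sets the difference between the left and right ASE taste neurons, had none in the pooled list. Its only region was in replicate 2, with a signal value of 15.1 and rank 17235 of 22971. mir-234, mir-273 and mir-791 had none in any list. The nearest pooled candidate was 2576 bp upstream of lsy-6 and 1117 bp downstream of mir-791.

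Among microRNAs of other tissues, mir-57, which acts in the posterior of the embryo, had 46.1 (26.5 in replicate 1 and 13.5 in replicate 2). mir-228, the marker of glia, had 27.0, with 15.1 in replicate 1. The 20.1 in replicate 2 belonged to another region in the window, which did not overlap the pooled one. The muscle microRNA mir-1 had none, and neither did the neighbours mir-240 and mir-786. In the group linked to stress and ageing, mir-239.1 and mir-239.2 shared a region of 47.4 (22.1 and 28.2) between them, and mir-246 and mir-34 had none. None of these tissue or stress genes reached the IDR limit.

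The replicates gave a like number of microRNA genes, with a candidate at 100 in replicate 1 and at 109 in replicate 2. Of the 107 genes with a pooled candidate, 74 had a candidate in the window in both replicates, 11 in replicate 1 only, 19 in replicate 2 only and 3 in neither. By overlap with the pooled region itself, 70 had one in both. Of the 153 genes with no pooled candidate, 124 had none in either replicate. Only 14 genes had a region in the strongest 10% of both replicate lists. With 23022 and 22971 candidates in the replicates, presence in a list is a weak statement, and the rank carries more of the information. The number of reads behind each region is unknown, so an absent region says only that none was listed.

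**Figure D5:**
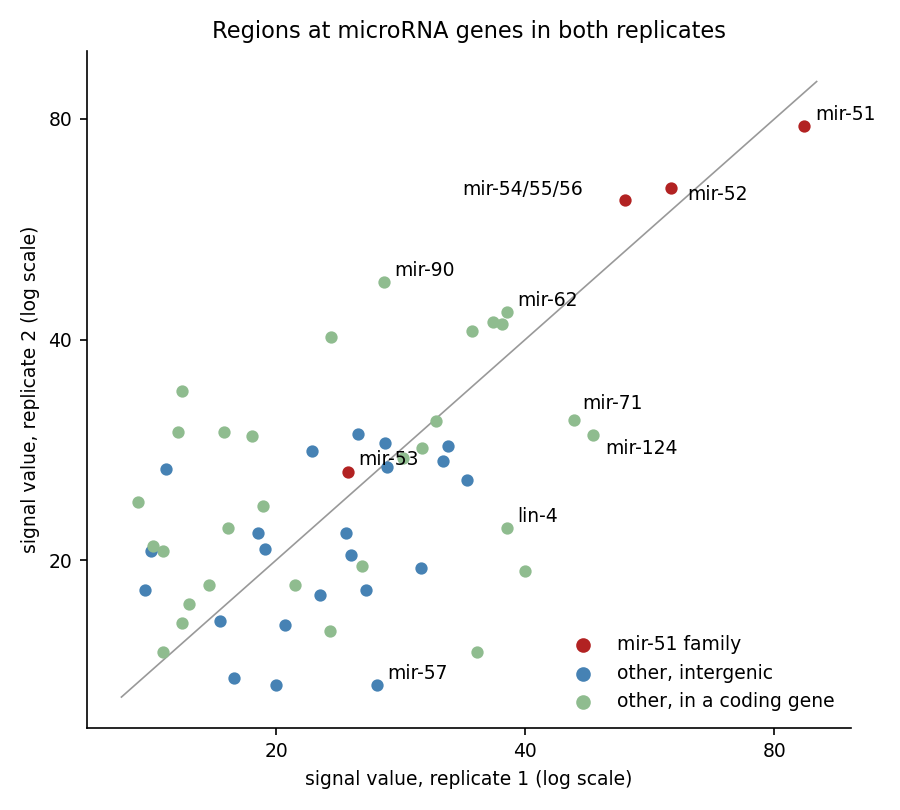
Signal value in replicate 1 (x axis) and replicate 2 (y axis), both on log scales, of the 56 distinct regions at the 70 microRNA genes whose strongest pooled region overlapped a candidate in both replicates. Points are regions, the line marks equal values, and colours are as in the plot of ranked signal values. mir-51 (87.0 and 78.3), mir-52 (60.0 and 64.5) and the mir-54 cluster (52.8 and 62.1) lie apart at the upper right, and all other regions plotted lie between 13.5 and 48.3 on both axes.

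The word AATCAC, the core of the site bound by GFI proteins, was searched on both strands within 50 bp of the summit. It was found at 8 of the 101 regions in microRNA windows (7.92%, 4.07% to 14.9%), against 918 of 21336 pooled candidates (4.30%) and 12 of 327 IDR peaks (3.67%). None of the stretches printed above for the 4 IDR peaks holds it. It occurred at the second region of mir-52 and at regions of mir-57, mir-233, mir-353, mir-4815, mir-50, mir-2218.1 and mir-8193. The mean GC content of these 101-bp windows was 46.7% ± 9.34 (SD over 101 regions) at microRNA genes and 42.5% ± 10.1 over all candidates. A match is a description of the sequence, and absence of the word says only that these letters are not in the window.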

How the data were processed

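Late embryos of a PAG-3-eGFP strain had been profiled by ChIP-seq in 2 biological replicates, per the labels. The authors deposited candidate regions for each replicate (23022 and 22971) and pooled (21336), and 327 IDR peaks, in ce11. The deposited lists give every region a signal value, which was used here. The −log10 q value from the authors was used only to describe a few candidates. The aligner, the caller, the IDR cut-off and the sequencing depth are not given in the sources used here, and the control was not analysed here. Of the ce10 lists only the lowest signal value of the 471 IDR peaks was used, and no coordinate was converted. Signal values were not rescaled.

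Genes, hosts, mature arms and sequence came from RefSeq WBcel235. Protein-coding windows ended 100 bp after the 5′ end, so that widths were alike. A microRNA gene was called within a host where it overlapped a protein-coding gene by at least 1 bp. The strongest region per window was kept in each list, so replicate values are those of the window unless overlap is stated. Shares have 95% Wilson intervals and no test was made. Window assignment was tested on simulated data. Named genes were those with an IDR peak, the 20 of largest signal value, list members with a candidate, and lin-4, let-7, lsy-6, mir-1, mir-124 and mir-228; other names were chosen after their values were seen. The members and the 7 gene lists were chosen with earlier results of these data known, as were the words and the grouping by number. Alternatives covered the window, the overlap rule, each replicate alone, tRNA and snoRNA neighbours, loci, hosts, limits on signal and the Ensembl release 115 annotation. Tables were handled in pandas 2.3.3 and numpy 2.4.6 under Python 3.11.15, intervals came from scipy 1.17.1, and plots from matplotlib 3.10.9.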

Additional observations from a re-analysis of the deposited data

How the results depend on the processing

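No paired analysis was possible because the series holds 1 group of 2 replicates. Of 51 alternative values, 11 moved by more than the limit set for each (1.5 times for a count, the 95% interval for a share) and 40 did not. The share of microRNA genes with a candidate (41.2%) was 32.7% with 500 bp upstream, 53.5% with 2000 bp, 50.8% with 1000 bp on both sides and 26.9% when a candidate in both replicates was required; for protein-coding genes these were 16.7%, 38.7%, 39.3% and 13.9%, lower in each case. For genes within a host the share was 44.8% with 500 bp and 65.7% with 2000 bp, and for intergenic genes 45.2% with 2000 bp. The 6 genes with an IDR peak became 12 with the 1000 strongest regions, 10 with the ce10 signal limit and 1 without the mir-51 family. AATCAC was found at 2.97% of regions within 25 bp of the summit (1.95% of all candidates, 0.306% of IDR peaks) and at 12.9% within 100 bp (8.83% and 6.42%), so the background moved with the window. The ce10 limit, the Ensembl annotation (41.0%, 6 genes with an IDR peak) and leaving out the family were chosen after seeing the data. The cause of these moves was not tested.

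With either replicate left out, the share ran from 38.5% to 41.9%, from 31.6% to 33.5% for intergenic genes and from 48.6% to 54.3% for genes within a host. Among the 327 strongest regions of 1 replicate there were 6 to 7 genes: mir-51, mir-52, mir-54, mir-55 and mir-56 in both, with mir-124 and mir-71 in replicate 1 and mir-90 in replicate 2, and mir-62 in neither. With 500 bp upstream, mir-56 and mir-62 lost their IDR peak, which left 4 genes. The candidate lists are permissive and the depth is unknown, so weak regions are the least certain.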

Other observations

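Several strong peaks lay near microRNA genes but outside the window. The IDR peak of rank 16 (signal value 203) had its summit 2831 bp upstream of mir-35, and that of rank 58 (signal value 140) had its summit 2631 bp upstream. Both lay in the promoter window of Y62F5A.12, and the first also in that of mdt-8. They were not assigned to the mir-35 cluster because they lay more than 1000 bp upstream. An IDR peak of rank 127 (signal value 113) lay 924 bp downstream of the 5′ end of mir-5550, in the promoter windows of T07A9.12 and kgb-1. The IDR peak of rank 24 (signal value 192) lay 2890 bp upstream of mir-4813, in the promoter windows of idhg-1 and mlcd-1. Other IDR peaks lay downstream of the 5′ end of mir-392 (1059 bp, rank 282), mir-257 (2152 bp, rank 196) and mir-791 (2917 bp, rank 225). An antisense microRNA gene, F09A5.15, overlaps mir-55. Its own window held another region, with a signal value of 52.5 (30.0 in replicate 1 and 28.4 in replicate 2), and the peak of the mir-54 cluster lay 548 bp downstream of its 5′ end.

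The word GGTTCGA, part of the internal promoter of tRNA genes, was looked up after it had been seen at the mir-51 summit. On both strands within 50 bp of the summit it occurred at 2 of 101 regions in microRNA windows (1.98%, those of mir-51 and mir-4806), at 1.41% of all candidates, at 7.34% of IDR peaks and at 35.7% of the 56 IDR peaks near a tRNA gene. No tRNA or snoRNA gene is annotated within 100 bp of the mir-51 summit. Whether the region at mir-51 holds a transcription unit of that kind was not tested.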
